A study of Mus musculus with 8 samples.

Results

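The IgE and IgG Fc receptor chains are a set of 7 genes, Fcer1a, Ms4a2, Fcer1g, Fcgr3, Fcgr2b, Fcgr4 and Fcgr1, chosen by gene name among the 55487 genes of the files. Their transcripts were measured by RNA-seq in sorted pre-Baso and basophils of mouse bone marrow. Levels are in TPM, a share of transcripts that corrects for transcript length and sums to the same total in every library. All mice were C57BL/6J. The control pre-Baso and control basophils came from littermates labelled wild type, and the Nfil3-deficient pre-Baso and basophils from mice in which a floxed Nfil3 gene, encoding a basic leucine zipper transcription factor, had been deleted. Neither the Cre driver is named in the labels, nor whether the controls carried floxed alleles or Cre, and they give no age. Each of the 4 groups held 2 libraries, described in the design text as biological duplicates. Both populations were lineage-negative, CD34-negative, c-Kit-negative and CD200R3-positive. They were separated by staining with MAR1, an antibody to the alpha chain of the IgE receptor: pre-Baso stained high and basophils intermediate. The protein product of Fcer1a was therefore part of the sort, and its transcript level is described between populations without a test.

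The high-affinity IgE receptor of rodent basophils and mast cells is a complex of 3 kinds of chain. The alpha chain, encoded by Fcer1a, binds IgE. The beta chain, encoded by Ms4a2, spans the membrane several times and amplifies signalling, and the gamma chain, encoded by Fcer1g, forms a dimer whose ITAM motifs recruit the kinase Syk. The gamma chain also serves the activating IgG receptors encoded by Fcgr3, Fcgr4 and Fcgr1, which need it to reach the surface and to signal. Fcgr2b encodes the inhibitory IgG receptor, which carries an ITIM in its own tail and recruits the inositol phosphatase SHIP1. Crosslinking of IgE on basophils releases histamine and cytokines, and engagement of the inhibitory receptor restrains that response.

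In the mm10 (GRCm38) coordinates of the files, 5 of the 7 genes lie on chromosome 1. Fcgr2b (ENSMUSG00000026656, chr1:170958617-170976547, minus strand), Fcgr4 (ENSMUSG00000059089, chr1:171018920-171029761, plus strand), Fcgr3 (ENSMUSG00000059498, chr1:171051174-171064935, minus strand) and Fcer1g (ENSMUSG00000058715, chr1:171229572-171234365, minus strand) lie within 276 kb. Fcer1a (ENSMUSG00000005339, chr1:173221284-173227214, minus strand) lies 1987 kb beyond Fcer1g. Ms4a2 (ENSMUSG00000024680, chr19:11615523-11623719, minus strand) lies on chromosome 19, and Fcgr1 (ENSMUSG00000015947, chr3:96282909-96293969, minus strand) on chromosome 3. Fcgr2b and Fcgr3 have similar extracellular exons, so reads from these exons may be divided uncertainly between them. The quantification used no strand setting, so reads from the start of Fcgr2b cannot be told apart from those of an overlapping gene on the other strand.

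The TPM ratios of the IgE receptor chains differed among the libraries, and any part of promoter sequence in this was not tested. The 250 bases before the RefSeq start (GRCm38.p6) are shown for these 3 chains and for Fcgr3, the most abundant IgG receptor gene. They are chr1:173227230-173227479 for Fcer1a, chr19:11623720-11623969 for Ms4a2, chr1:171234350-171234599 for Fcer1g and chr1:171059404-171059653 for Fcgr3, all on the minus strand and written 5′ to 3′. Capitals mark the letters AGATAA, a form of the GATA factor motif, and GAGGAA, a form of the ETS motif bound by PU.1, on either strand.
Fcer1a: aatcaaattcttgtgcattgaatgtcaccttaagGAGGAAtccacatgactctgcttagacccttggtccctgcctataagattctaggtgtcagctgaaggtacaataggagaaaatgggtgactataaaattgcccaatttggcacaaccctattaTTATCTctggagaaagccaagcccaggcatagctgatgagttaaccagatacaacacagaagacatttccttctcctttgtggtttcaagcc
Ms4a2: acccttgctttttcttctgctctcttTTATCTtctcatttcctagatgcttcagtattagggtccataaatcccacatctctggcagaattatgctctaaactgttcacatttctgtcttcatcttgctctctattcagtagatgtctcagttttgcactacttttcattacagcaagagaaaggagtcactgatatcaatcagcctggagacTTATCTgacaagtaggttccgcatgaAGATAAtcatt
Fcer1g: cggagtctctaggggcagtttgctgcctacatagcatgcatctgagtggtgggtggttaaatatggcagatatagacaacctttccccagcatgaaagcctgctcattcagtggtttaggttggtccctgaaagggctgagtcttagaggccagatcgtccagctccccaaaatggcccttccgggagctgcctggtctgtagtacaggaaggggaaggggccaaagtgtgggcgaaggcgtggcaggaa
Fcgr3: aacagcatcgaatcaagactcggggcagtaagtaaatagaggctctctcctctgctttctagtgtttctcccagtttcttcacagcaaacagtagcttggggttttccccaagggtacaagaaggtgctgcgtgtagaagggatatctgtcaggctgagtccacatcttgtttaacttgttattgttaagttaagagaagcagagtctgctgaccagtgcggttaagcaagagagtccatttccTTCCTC

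Counted over both strands, AGATAA occurred 3 times before Ms4a2 and 1 time before Fcer1a. It did not occur in the windows of the other 5 genes. Of 32851 mouse promoter windows of the same length, 9.99% held it at least 1 time and 0.0883% at least 3 times. GAGGAA occurred 1 time each before Fcer1a, Fcgr3, Fcgr4 and Fcgr1, and 23.3% of windows held it. Its match before Fcgr3 ends at the last base printed. TTGCNNAA, a form of the C/EBP motif, occurred 1 time before Fcer1a and 1 time before Fcgr3, against 9.56% of windows. TTANNTAA, a form of the motif bound by NFIL3 itself, was in the window of none of the 7 genes, against 5.43% of windows. No match overlapped another in the windows of the 7 genes. A match of letters is a description and not a binding site.

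Nfil3, the deleted gene, was at 6.61 and 7.65 TPM in the control pre-Baso libraries and at 20.5 and 22.5 TPM in the control basophil libraries. It was listed at 0 and 0.624 TPM in deficient pre-Baso and at 0.853 and 1.32 TPM in deficient basophils. All 4 deficient libraries lay below all 4 control libraries, with a log2 difference of -3.05. An exact permutation test over 70 splits gave a two-sided p = 0.0286, the smallest that 4 against 4 libraries allow. It counted the pre-Baso and basophil libraries of a genotype as separate samples. The sample titles name no animals, so the populations may share mice. Over the exon bases shared by its coding transcripts, which leave out the last exon, the difference was -0.042 (exact permutation p = 1). That measure cannot show a loss of reads in the last exon, so it does not decide on the deletion. Assigned read bases were 272 to 398 Mb per library, and replicate libraries correlated at r = 0.962 to 0.979 across genes. Protein-coding genes took 18.7% to 22.4% of the TPM, and the rest went to other RNA classes. All 13 basophil markers reached 1 TPM in some library, but their levels differed between the groups. Mcpt8, a basophil granule protease, was at 6244 and 7888 TPM in control pre-Baso and at 969 and 1400 TPM in control basophils, against 4.08 and 6.04 TPM in deficient pre-Baso and 2.73 and 1.98 TPM in deficient basophils. The basophil markers together summed to 20129 to 34149 TPM in pre-Baso and to 4851 to 10815 TPM in basophils, most of it Prss34, another granule protease. The part of these differences in the levels of the Fc receptor chains was not tested. Cd200r3, whose protein was used in the sort, was at 223 to 383 TPM in every library. In sorted pools like these, fewer cells that make a transcript and less of it per cell cannot be told apart. The first basophil library of each genotype stood apart by markers of other cells, which are given beside Fcgr4.

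Across the set, the gamma chain was the most abundant transcript, followed by the alpha chain, the beta chain, Fcgr3 and Fcgr2b, while Fcgr4 and Fcgr1 were near 0 outside 2 libraries. The order of neighbours was not separated everywhere. Fcer1g and Fcer1a overlapped in control pre-Baso, and Fcer1a and Ms4a2 overlapped in deficient basophils. Fcgr3 lay below Ms4a2 and above Fcgr2b in every library. Of the 7 genes, 6 passed the filter of at least 1 TPM in at least 2 libraries and were tested among 12511 genes. Differences are in log2(TPM + 1) with their standard error (SE) from a limma fit over all 8 libraries, with p-values adjusted by Benjamini-Hochberg, and a difference is called at an adjusted p under 0.05. Fcgr4 passed only through the first library of each basophil group, so it carries no test between populations, and Fcgr1 did not pass.

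**Figure D1:**
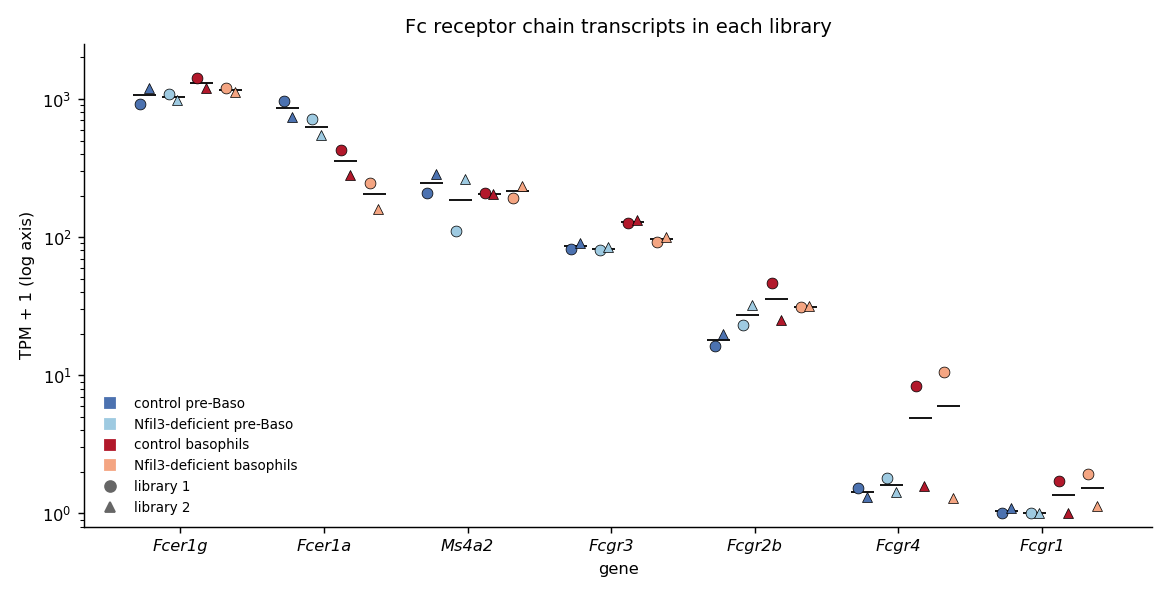
Transcript level of the 7 Fc receptor chain genes in each of the 8 libraries, as TPM + 1 on a log axis. Circles and triangles are the first and second library of a group, and bars are group means. Fcer1a is highest in control pre-Baso and lowest in deficient basophils, while Fcer1g lies between 922 and 1405 TPM.

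Fcer1a, the IgE-binding alpha chain, was lower in the basophil libraries than in the pre-Baso libraries. It was at 959.8 and 744 TPM in control pre-Baso and at 711 and 547 TPM in deficient pre-Baso. It was at 424 and 279.9 TPM in control basophils and at 245 and 159.9 TPM in deficient basophils. The first library was the higher one in every group. Every basophil library lay below every pre-Baso library, in the direction of the MAR1 gates that defined the populations. This was so for 13.1% of tested genes. The difference in log2(TPM + 1), given as a description, was -1.29 in control and -1.65 in deficient mice.

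Within each population both deficient libraries had less Fcer1a transcript than both controls. Cells of both genotypes had been sorted by MAR1 staining of the Fcer1a product. The genotype differences below therefore hold only among cells already selected by that protein. Group means were 852 ± 152 TPM (SD, n = 2) in control and 629 ± 116 TPM in deficient pre-Baso, and in basophils 352 ± 102 TPM in control and 203 ± 60.3 TPM in deficient mice. This was not called in either population: the log2 change was -0.44 ± 0.27 (SE; limma adjusted p = 1) in pre-Baso and -0.80 ± 0.27 (adjusted p = 0.421) in basophils. Over both populations it was -0.62 ± 0.19 (adjusted p = 0.509). The lack of overlap is not rare in these data. Deficient libraries were both below the controls for 19.3% of tested genes in pre-Baso, for 21.4% in basophils and for 4.84% in both populations. Fcer1a was the only member of the set to show it in both, and Fcer1g and Fcgr3 showed it in basophils. Its change had the same sign under every alternative tried, from -0.77 to -0.46 over both populations, with adjusted p from 0.121 to 0.781. When 1 library was left out it ranged from -0.63 to -0.25 in pre-Baso and from -1.10 to -0.49 in basophils. In basophils the lowest value came without the first deficient library and the highest without the second.

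Fcer1a was read from 1 coding transcript, ENSMUST00000049706 of 998 bases, in every library. Read coverage was lowest in the first exon and highest in the last in each library. In the first control pre-Baso library it was 269 reads per base at the 5′ end and 745 at the 3′ end, and in the second deficient basophil library 40.9 and 119. The order of the 8 libraries was the same at both ends.

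Ms4a2, the beta chain, had no called difference between the populations. It was at 209 and 286 TPM in control pre-Baso, 109 and 262 TPM in deficient pre-Baso, 206 and 203 TPM in control basophils, and 192 and 235 TPM in deficient basophils. The groups overlapped, apart from both control pre-Baso libraries lying above both control basophil libraries, the nearest at 209 and 206 TPM. The share of all genes separated in this way was not computed. The first deficient pre-Baso library lay far below the rest. The log2 change from pre-Baso to basophils was -0.26 ± 0.35 (limma adjusted p = 0.642) in control and 0.33 ± 0.35 (adjusted p = 0.592) in deficient mice. Between genotypes it was -0.53 ± 0.35 in pre-Baso and 0.06 ± 0.35 in basophils (adjusted p = 1 and 0.984).

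The low Ms4a2 value in that library came from 1 part of the gene. Its main transcript, ENSMUST00000186978 of 2391 bases, took 79.2% of the gene's TPM over all libraries and was listed at 0 in the first deficient pre-Baso library alone. The end of the last exon, chr19:11615523-11616956, had 84.6 to 172 reads per base in the other 7 libraries and 0 in this one. In the first exon, at chr19:11623560-11623643, the same library had 43.0 reads per base, within the range of 30.5 to 53.9 of the others. Over the exon bases that the main coding transcripts share, with the last exon left out and put on the TPM scale, it had 86.2 against 70.8 to 103.7 in the others. On that measure, chosen after the values were seen, the pre-Baso genotype change was 0.05 and not -0.53, and the difference between populations was -0.24 in control and -0.26 in deficient mice. None of these was called (adjusted p = 1, 0.344 and 0.344).

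**Figure D2:**
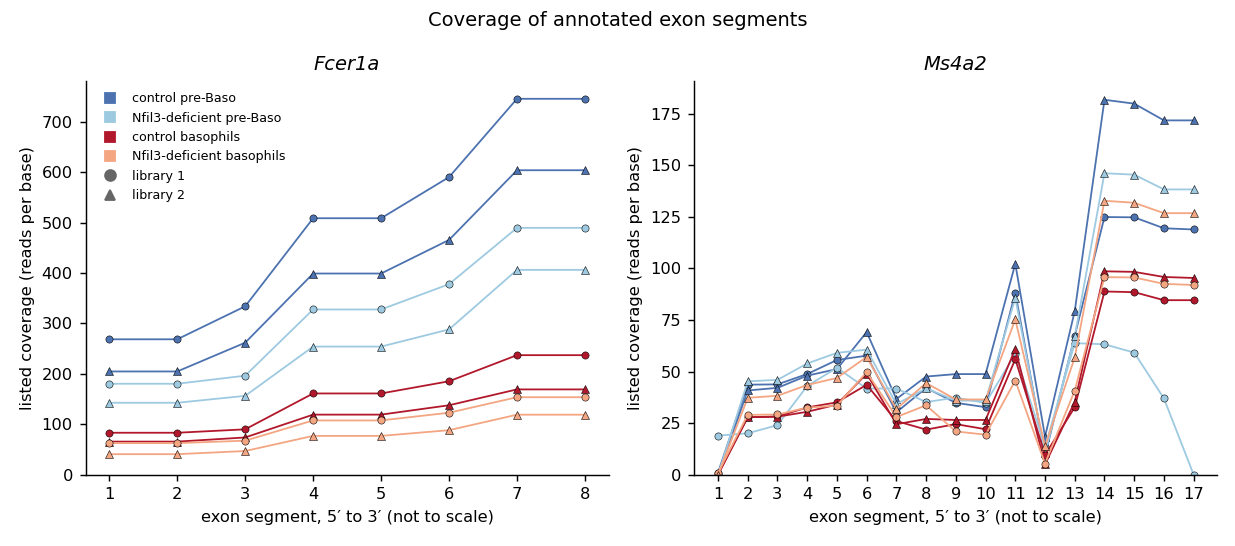
Read coverage listed for the annotated exon segments of Fcer1a and Ms4a2, in 5′ to 3′ order and not to scale, with 1 line per library. The Fcer1a lines keep the same order at both ends of the gene, whereas the first deficient pre-Baso library is at 0 at the 3′ end of Ms4a2.

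Fcer1g, the gamma chain shared by the IgE and IgG receptors, was at 922 and 1208 TPM in control pre-Baso and at 1088 and 974 TPM in deficient pre-Baso. It was at 1405 and 1199 TPM in control basophils and at 1198 and 1129 TPM in deficient basophils. The control populations overlapped, and the deficient populations did not. The share of all genes separated in this way was not computed. Neither difference was called, with log2 changes of 0.30 ± 0.15 (limma adjusted p = 0.181) in control and 0.18 ± 0.15 (adjusted p = 0.474) in deficient mice. Both deficient basophil libraries were below both controls by a small margin (-0.16 ± 0.15, adjusted p = 0.837), and the pre-Baso libraries of both genotypes overlapped (-0.04 ± 0.15, adjusted p = 1). In the control mice the difference between populations was called when protein-coding genes were rescaled to a common total (0.31, adjusted p = 0.0284) and without the second control pre-Baso library (0.49, adjusted p = 0.049).

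The chains of the IgE receptor therefore stood in different proportions in the libraries. The ratio of Fcer1g to Fcer1a TPM was 0.961 and 1.62 in control pre-Baso and 1.53 and 1.78 in deficient pre-Baso. It was 3.31 and 4.28 in control basophils and 4.88 and 7.06 in deficient basophils, above all pre-Baso libraries. The ratio of Ms4a2 to Fcer1a was 0.154 to 0.480 in the pre-Baso libraries and 0.486 to 1.47 in the basophil libraries. Its value of 0.154 came from the first deficient pre-Baso library, where the main Ms4a2 transcript was listed at 0. Both ratios hold the chain used in the sort and carry no test between populations. The ratio of Fcer1g to Ms4a2 was 3.71 to 9.96 in pre-Baso and 4.80 to 6.81 in basophils, with the 9.96 from that same library. On the log2 scale this ratio differed by 0.20 between populations (exact permutation test, two-sided p = 0.571) and by 0.14 between genotypes (exact permutation p = 0.743). Adjusted over the 4 ratio tests made here, both were 0.743. Over shared exon bases, chosen after the values were seen, the difference between populations was 0.48 (exact permutation p = 0.0286), with all basophil libraries above all pre-Baso libraries.

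**Figure D3:**
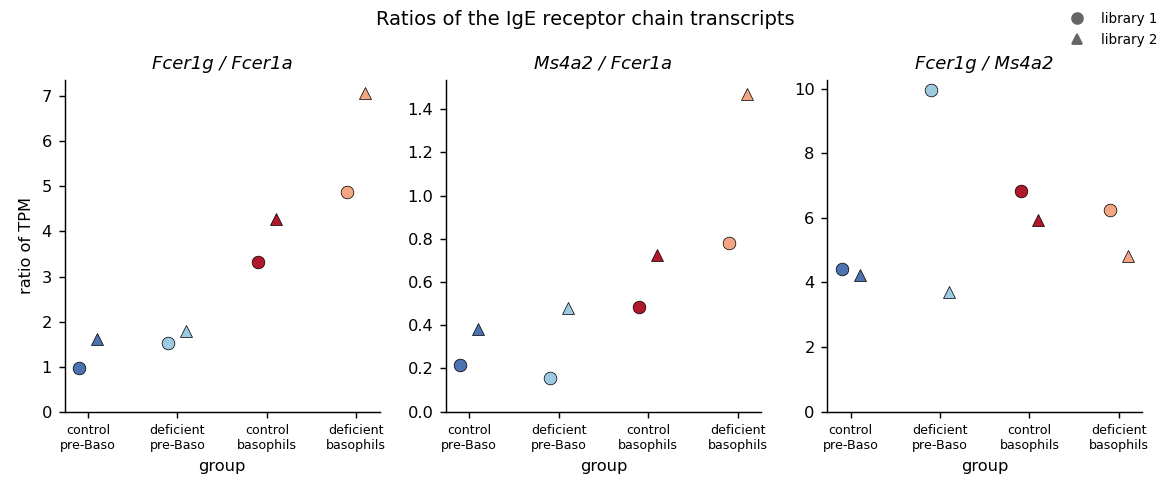
Ratios of TPM between the 3 IgE receptor chains in each library, by group, on linear axes. Fcer1g over Fcer1a is between 0.961 and 1.78 in pre-Baso and between 3.31 and 7.06 in basophils. Fcer1g over Ms4a2 overlaps between the populations. Its high value of 9.96 is from the first deficient pre-Baso library, where the main Ms4a2 transcript is listed at 0.

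Fcgr3 encodes the activating low-affinity IgG receptor, and it was the member called between populations. It was at 80.6 and 89.0 TPM in control pre-Baso and at 125 and 132 TPM in control basophils, a log2 change of 0.59 ± 0.13 (limma adjusted p = 0.0142). In deficient mice it was at 79.1 and 83.3 TPM in pre-Baso and at 91.9 and 98.9 TPM in basophils, a change of 0.23 ± 0.13 that was not called (adjusted p = 0.293). All 4 basophil libraries lay above all 4 pre-Baso libraries, as they did for 21.3% of tested genes. The difference between the 2 changes was -0.36 ± 0.18 and was not called (adjusted p = 0.918). Deficient basophils had less Fcgr3 than control basophils without overlap, but the change of -0.42 ± 0.13 was not called (adjusted p = 0.375). Deficient and control pre-Baso differed by -0.06 ± 0.13 (adjusted p = 1).

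When 1 library was left out, the Fcgr3 change in control mice stayed at 0.52 to 0.66, and calls over all genes fell. The Fcgr3 call itself was thin. Leaving out the first library of control pre-Baso ended it (0.52, adjusted p = 0.0578), as did leaving out the first of control basophils (0.63, adjusted p = 0.0625) or their second (0.55, adjusted p = 0.0852). Without both first basophil libraries the change was 0.63 (adjusted p = 0.103). Its division among transcripts was unstable: the coding transcript ENSMUST00000164044 was listed at 0 in the first deficient pre-Baso library and at 29.7 to 91.3 TPM elsewhere, while the retained-intron transcript ENSMUST00000168817 took 7.49 to 91.6 TPM. Over shared exon bases the change was 0.62 (adjusted p = 0.0235). For its most abundant transcript alone it was 0.61 (adjusted p = 0.866), and for coding transcripts 0.73 (adjusted p = 0.674).

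Fcgr2b, the inhibitory receptor, was at 15.2 and 18.8 TPM in control pre-Baso and at 45.6 and 24.2 TPM in control basophils. It was at 22.0 and 31.1 TPM in deficient pre-Baso and at 30.2 and 30.6 TPM in deficient basophils. Control populations did not overlap, and deficient populations did. Deficient pre-Baso libraries lay above both controls. The shares of all genes with these separations were not computed. The reverse genotype separation, both deficient libraries below both controls, held for 19.3% of tested genes in pre-Baso and 21.4% in basophils. The change in control mice was not called (0.94 ± 0.29, limma adjusted p = 0.0504). It was 0.49 without the first control basophil library and 1.38 without the second. It was called under 4 of 22 alternatives, with adjusted p from 0.0123 to 0.847 over all of them. In deficient mice it was 0.21 ± 0.29 (adjusted p = 0.685), and the difference between the changes was -0.72 ± 0.41 (adjusted p = 0.931). Between genotypes it was 0.60 ± 0.29 in pre-Baso (adjusted p = 1) and -0.13 ± 0.29 in basophils (adjusted p = 0.951).

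Part of the Fcgr2b value in deficient pre-Baso was assigned to non-coding transcripts. Coding transcripts alone summed to 12.1 and 13.5 TPM in control pre-Baso and to 9.75 and 10.02 TPM in deficient pre-Baso. They summed to 36.1 and 18.1 TPM in control basophils and to 17.5 and 21.2 TPM in deficient basophils. On this sum, added after the values were seen, the direction between genotypes in pre-Baso turned to -0.34 (limma adjusted p = 0.982). Basophils lay above pre-Baso without overlap in both genotypes (0.95 and 0.90, limma adjusted p = 0.0727 and 0.126). On TPM summed over all transcripts, all basophil libraries lay above all pre-Baso libraries for 21.3% of tested genes. The share on coding sums was not computed.

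The coding transcripts of Fcgr2b differ by an exon of 141 bases for part of the cytoplasmic tail. In mice, B cells mainly make the form with this exon and macrophages mainly the form without it. The exon, at chr1:170963325-170963465 on the minus strand of GRCm38, is shown because its listed coverage, set against that of the exon upstream, differed among the libraries.
Fcgr2b alternative exon: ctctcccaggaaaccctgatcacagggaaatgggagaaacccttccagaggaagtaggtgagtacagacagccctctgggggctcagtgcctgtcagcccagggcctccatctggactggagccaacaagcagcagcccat

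Its listed coverage was 8.69 to 14.1 reads per base in the 8 libraries, so transcripts with the exon were read in every library. The exon of 123 bases just upstream, at chr1:170965702-170965824, had 4.49 to 15.4 reads per base. The ratio of the first to the second was 1.72 and 1.13 in control pre-Baso and 1.80 and 1.94 in deficient pre-Baso. In basophils it was 0.702 and 1.22 in control and 0.725 and 1.10 in deficient mice. The first basophil library of each genotype was thus the lowest, and the other 6 were above 1. The transcript without the exon, ENSMUST00000081103, was estimated at 25.6 TPM in the first control basophil library, at 8.41 TPM in the second deficient basophil library, at 4.46 TPM in the second deficient pre-Baso library and at 0 in the other 5. This order is not that of the coverage ratio, which was lower in the first deficient basophil library than in the second. A ratio above 1 also cannot be a share of transcripts with the exon. These coverages are the authors' estimates per transcript summed over each exon, and no test was made of them.

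The ratio of Fcgr3 to Fcgr2b, activating over inhibitory receptor, was 5.29 and 4.73 in control pre-Baso and 3.60 and 2.68 in deficient pre-Baso. It was 2.73 and 5.45 in control basophils and 3.04 and 3.23 in deficient basophils. The log2 ratio differed by -0.16 between populations (exact permutation test, two-sided p = 0.657) and by -0.48 between genotypes (exact permutation p = 0.114), and adjusted over the 4 ratio tests these were 0.743 and 0.457. The first control basophil library was the control with a low ratio. Leaving out this lowest control raises the control mean by itself, and the genotype difference was then -0.70. Over coding transcripts of all libraries it was 0.09 (exact permutation p = 0.943).

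Fcgr4 and Fcgr1 encode IgG receptors typical of monocytes, macrophages and neutrophils. Fcgr4 was at 0.525 and 0.311 TPM in control pre-Baso, 0.812 and 0.420 TPM in deficient pre-Baso, 7.30 and 0.572 TPM in control basophils, and 9.63 and 0.282 TPM in deficient basophils. Only the first basophil library of each genotype exceeded 1 TPM, a pattern of both first basophil libraries above the other 6 that 7.88% of tested genes shared. Fcgr1 was at 0.707 and 0.934 TPM in the same 2 libraries, at 0.137 TPM in the second deficient basophil library, at 0.0894 TPM in the second control pre-Baso library and listed at 0 in the other 4. No Fcgr4 difference between genotypes was called. Between genotypes it changed by 0.18 ± 0.97 in pre-Baso and 0.03 ± 0.97 in basophils (limma adjusted p = 1 and 0.998). The log2 difference from pre-Baso to basophils, given as a description, was 1.35 in control and 1.20 in deficient mice. Within groups the spread in basophils was larger than the mean (3.94 ± 4.76 TPM in control and 4.96 ± 6.61 TPM in deficient mice, SD, n = 2). Assigned bases were 4.06 and 6.12 kb for Fcgr4 in those 2 libraries and 0.204 to 0.553 kb elsewhere, so its absence from the other 6 is not shown at this depth.

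Markers of other cells were high in the same 2 libraries. Of 15 monocyte and macrophage markers, 11 were higher in both than in any other library. Their summed level was 857 TPM in the first control and 773 TPM in the first deficient basophil library, against 315 and 361 TPM in the second ones and 191 to 291 TPM in pre-Baso. Lyz2, the most abundant, was at 679 and 637 TPM there and at 128 to 303 TPM elsewhere. Clec12a, the next, was at 16.7 and 16.9 TPM there and at 10.9 to 58.5 TPM elsewhere. The dendritic cell list, which holds MHC class II genes, summed to 667 and 609 TPM against 48.5 to 74.6 TPM elsewhere, with Cd74 at 333 and 302 TPM and H2-Ab1 at 158 and 149 TPM. Its defining members Flt3, Xcr1 and Zbtb46 stayed under 1 TPM in every library.

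The 15 neutrophil and granulocyte progenitor markers summed to 2527 and 2535 TPM in those 2 libraries and to 1478 to 3235 TPM elsewhere, with 10 of them highest in both. S100a8 was at 803 and 739.8 TPM there, whereas Ctsg, a protease of granulocyte progenitors, was at 745 to 1857 TPM in pre-Baso and at 85.1 to 592 TPM in basophils. Eosinophil markers summed to 2724 TPM in the first control basophil library and 246 TPM in the first deficient one, and to 50.8 to 134 TPM elsewhere. Most of this was Prg2, at 2354 and 152 TPM, while Alox15 was at 31.3 to 68.3 TPM over all libraries. B and plasma cell markers summed to 146 and 63.5 TPM against 15.3 to 32.4 TPM elsewhere, with Igkc at 115 and 21.8 TPM and Cd79b at 7.97 to 12.8 TPM over all libraries. Of 10 mast cell markers, 5 were at 0 in every library, Cma1 did not exceed 2.41 TPM and Kit did not exceed 0.641 TPM. The T and NK cell list summed to 53.8 to 186 TPM, nearly all of it Nkg7. Cd3d did not exceed 0.773 TPM, and Trac, Klrb1c and Gzma were at 0 throughout. The part that such cells have in the levels of Fcgr4, Fcgr1, Fcgr2b and the Fcgr2b exon was not tested.

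**Figure D4:**
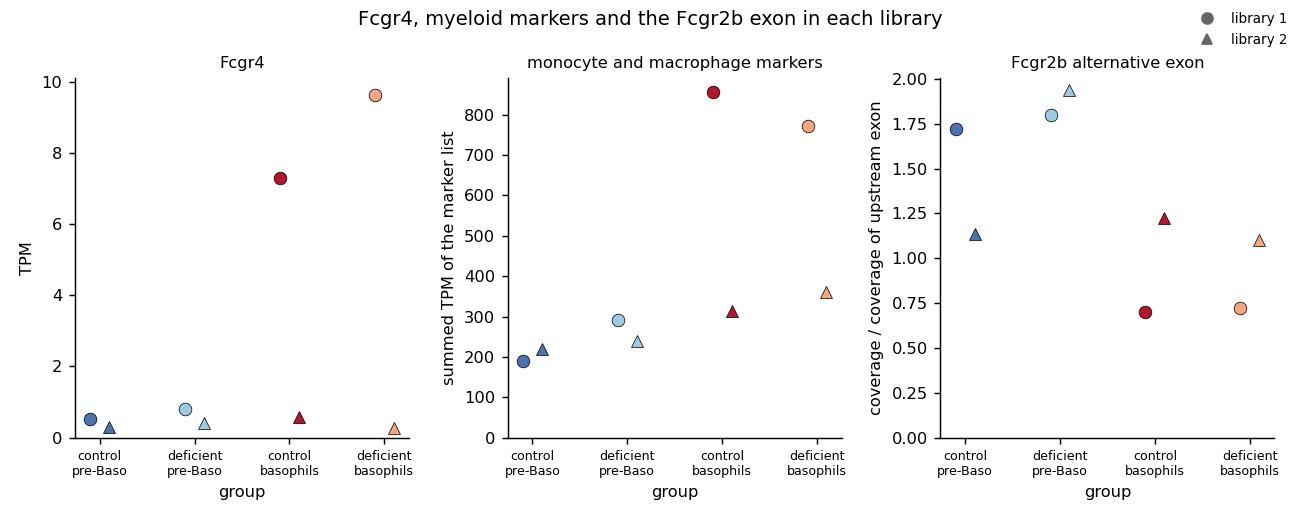
Fcgr4 level (TPM), summed TPM of 15 monocyte and macrophage markers, and coverage of the Fcgr2b alternative exon over that of the exon upstream, each by library. The first basophil library of each genotype is high in the first panels (9.63 and 7.30 TPM for Fcgr4) and lowest in the last (0.725 and 0.702).

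Taking the members together, 0 of 6 were called between genotypes in pre-Baso, where 0.0639% of all 12511 genes were called. In basophils 0 of 6 were called, against 0.056% of genes, and over both populations 0 of 6, against 0.0879%. Over both populations the other members changed by -0.24 ± 0.25 (Ms4a2), -0.10 ± 0.10 (Fcer1g), -0.24 ± 0.09 (Fcgr3), 0.24 ± 0.21 (Fcgr2b) and 0.11 ± 0.69 (Fcgr4), with limma adjusted p from 0.609 to 0.981. With backgrounds this low, the absence of calls says little about the members. At an unadjusted threshold of 0.05, limma had 548, 1065 and 931 genes in these 3 contrasts, among them Fcer1a and Fcgr3 in the last 2. Between populations, with Fcer1a and Fcgr4 left out, 1 of 4 members was called in control mice against 22.6% of genes, and 0 of 4 in deficient mice against 10.9%. Counts this small are near the background. When the genotype changes of both populations were compared, 0% of genes and 0 of 6 members were called, with 689 genes at an unadjusted p under 0.05. Beside Fcgr3 and Fcgr2b, that difference was -0.36 ± 0.37 for Fcer1a, 0.58 ± 0.50 for Ms4a2, -0.12 ± 0.21 for Fcer1g and -0.15 ± 1.37 for Fcgr4 (limma adjusted p from 0.965 to 0.997). The Fcer1a value again compares cells of both genotypes that were sorted by MAR1 staining.

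**Figure D5:**
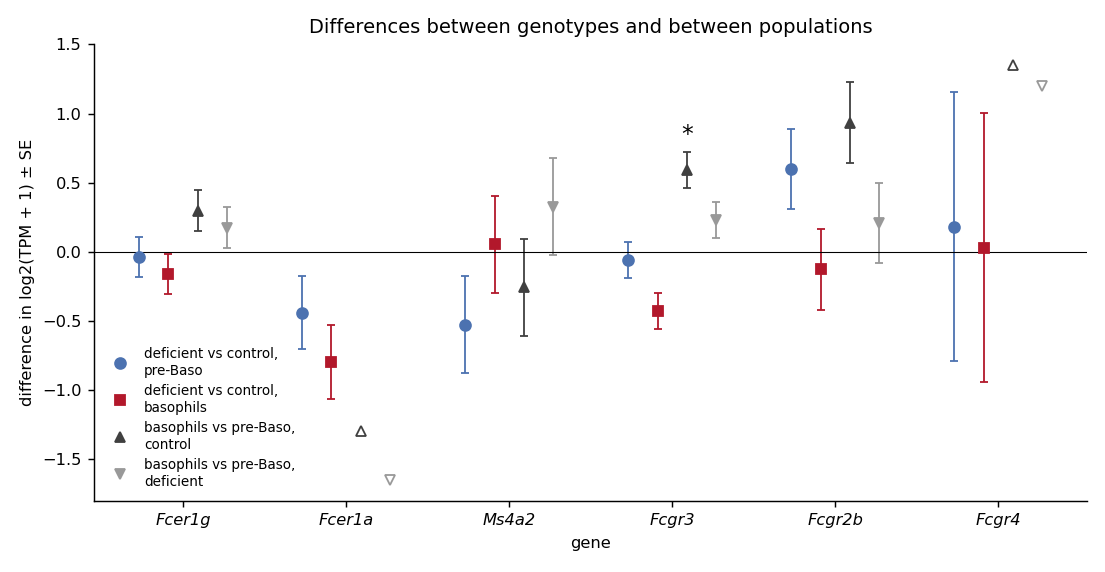
Differences in log2(TPM + 1) with standard errors from the limma fit for the 6 tested members. Filled symbols are tested differences, open symbols the untested Fcer1a and Fcgr4 differences between populations, and the asterisk marks the 1 called difference, Fcgr3 between control populations (0.59 ± 0.13).

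The wider Fc receptor pathway was read from 5 gene lists. These lists were chosen with earlier results of these data known, so the shares of all genes beside them are a description and not a test. Among kinases and adaptors that start Fc receptor signalling, 10 of 18 tested genes rose from pre-Baso to basophils in control mice and 0 fell, against 12.6% and 10% of all genes. The median log2 change was 0.75, beside 0.08 over all genes. The adaptor Gab2 rose by 1.24 ± 0.20 (limma adjusted p = 0.0039), Lat2, an adaptor like LAT, by 0.85 ± 0.14 and Syk, the kinase that binds the gamma chain, by 0.93 ± 0.17. Btk, Plcg1 and Tec followed with 0.93, 0.81 and 0.82. In deficient mice 6 of 18 rose and 0 fell, against 6.79% and 4.11% of genes, with a median of 0.63. These were Btk, Lat2, Gab2, Syk, Lcp2 and Lyn, and Btk had the smallest adjusted p (1.01 ± 0.18, adjusted p = 0.0146). Between genotypes 0 of 18 were called in any contrast.

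These counts depended on single libraries. Without both first basophil libraries 1 of 18 rose in control and 0 of 18 in deficient mice, where calls over all genes also dropped to 1032 and 4. The medians were then 0.73 and 0.57. Leaving out each library in turn gave 3 to 10 calls in control and 0 to 5 in deficient mice, with medians of 0.68 to 0.83 and 0.52 to 0.68.

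Among phosphatases and other inhibitors of Fc receptor signalling, 4 of 12 rose in control mice and 0 fell, with a median of 0.32. The shares of all genes given above, 12.6% and 10% in control and 6.79% and 4.11% in deficient mice, are the background for this and the following lists. They were Pag1 (1.85 ± 0.25), the kinase Csk that restrains Src-family kinases (0.99 ± 0.17), the adaptor Dok3 (0.80 ± 0.17) and Inpp5d (0.73 ± 0.19), which encodes SHIP1, the phosphatase recruited by the inhibitory receptor. In deficient mice 3 rose, Csk, Pag1 and Dok3 (0.96, 1.14 and 0.71). Without both first basophil libraries 1 and 0 were called, with medians of 0.41 and 0.34. Between genotypes 0 of 12 were called.

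Of the signalling chains and partners of Fcer1g, 4 of 11 were tested. Tyrobp, the DAP12 chain, was more abundant than Fcer1g itself in every library, at 1301 to 2756 TPM. It rose between populations by 0.86 ± 0.12 in control (adjusted p = 0.0026) and 0.47 ± 0.12 in deficient mice (adjusted p = 0.0473), and without both first basophil libraries neither was called (adjusted p = 0.0631 and 0.298). Hcst, the DAP10 chain, rose by 0.59 ± 0.14 in control mice. Csf2rb, the common beta chain of the IL-3, IL-5 and GM-CSF receptors, rose by 1.43 ± 0.19 and 1.42 ± 0.19, and the latter was not called without both first basophil libraries (adjusted p = 0.108). In control mice 3 of the 4 rose and in deficient mice 2, with medians of 0.73 and 0.52. Without both first basophil libraries these counts were 1 and 0. Cd247, the T cell relative of the gamma chain, was listed at 0 in all libraries.

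Among other genes of the Ms4a family, 9 of 19 were tested. Ms4a3, a relative of Ms4a2 known from granulocyte precursors, fell by 2.98 on the log2 scale in control mice (SE 0.26, limma adjusted p = 0.000415), and it was also called lower in deficient mice (-2.0002, adjusted p = 0.00508). Its level went from 188 and 178 TPM to 27.7 and 17.96 TPM in control mice. Ms4a4b and Ms4a6b rose in control mice by 1.41 ± 0.26 and 0.71 ± 0.19. Thus 2 of 9 rose and 1 fell in control mice and 1 fell in deficient mice, with medians of 0.65 and 0.42. Without both first basophil libraries 1 rose and 1 fell in control mice and 0 were called in deficient mice, where Ms4a3 was at -1.72 (adjusted p = 0.0969). The medians were then 0.00 and 0.09.

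Of other immunoglobulin-binding genes, 4 of 13 were tested. Lgals3 encodes galectin-3, a lectin that can bind IgE, and it was called between genotypes. It rose in deficient pre-Baso by 1.13 ± 0.14 (limma adjusted p = 0.0404) and over both populations by 0.75 ± 0.10 (adjusted p = 0.0492), and both calls were lost on leaving out any of the 8 libraries. It also rose from pre-Baso to basophils by 1.79 ± 0.14 in control and 1.02 ± 0.14 in deficient mice. Fcrlb rose by 0.81 ± 0.24 in control mice (adjusted p = 0.0398). In control mice 2 of 4 rose and in deficient mice 1, with medians of 0.71 in both. Without both first basophil libraries these counts were 1 and 0, and the Lgals3 change in deficient mice was not called (adjusted p = 0.121). Fcer2a, the low-affinity IgE receptor, did not exceed 0.249 TPM, and Pigr, Fcamr and Fcrl6 were listed at 0 in all libraries.

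Genes whose pattern over the 8 libraries was most like a member's were found by the root mean square difference of centred log2(TPM + 1). For Fcer1a they were Hmgn1, Ss18l2 and Hspb11, at 0.380, 0.410 and 0.450. For Ms4a2 they were Phrf1, Ring1 and Chrac1, at 0.150 to 0.173. For Fcgr2b, Thap3 was at 0.177 and Creb3 at 0.208. For Fcgr4 they were Tmem176b (0.277), Cd68 (0.384) and the MHC class II gene H2-Ab1 (0.413). Cd68 and H2-Ab1 are on the marker lists that were high in the same 2 libraries as Fcgr4. Genes most like Fcgr4 were bound to be high there, so their place on those lists is no separate support. The nearest genes to Fcer1a lay farther from it than those to Ms4a2 or Fcgr2b did from theirs. Fcer1g and Fcgr3 spanned under 1 on the log2 scale and were not compared.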

How the data were processed

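RNA from 8 sorted bone marrow samples was made into libraries with a SMARTER mRNA-Seq kit, per the labels' protocols. Reads were aligned with HISAT2 to mm10, per the submitters' processing notes (version not given in the sources used here). The authors quantified annotated transcripts of Ensembl release 101 with StringTie 2.1.4 and no strand option, per the file headers. The deposited files give TPM, FPKM and coverage per transcript, per the file headers, and no counts. Other files were not used.

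TPM was summed per gene. Tests used log2(TPM + 1), which understates changes of low genes, for the 12511 genes that reached 1 TPM in 2 or more libraries. The fit was limma 3.58.1 (R 4.3.3) with group means, a variance trend and 4 residual degrees of freedom. P-values were adjusted by Benjamini-Hochberg within each of 6 contrasts, and genes were called under 0.05. Nfil3 and ratios of members had exact permutation tests over 70 splits, with 4 ratio tests in all. These tests and the contrast over both populations count every library as a separate sample, though populations may share mice. The limma p-values set a difference against a spread pooled over the groups and moderated across genes. The exact p-values set the observed split against all 70 splits. A run of the fit on simulated data drew libraries independently, so it cannot show the effect of shared mice or other shared deviations.

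The named genes were the 7 members, their transcripts with at least 5% of the gene's TPM, up to 6 called genes per list (otherwise up to 2), the 2 most abundant markers per list and the 3 genes most like a member. Of the last, 1 gene is not reported here. Fcgr4 was planned for a test between populations, which is not given because it passed the filter through basophils alone. Cd200r3, Mcpt8, Prss34 and genes at or near 0 were named after their values were seen. Members and lists were chosen with earlier results of these data known. Alternatives were other pseudocounts, filters and scalings, FPKM, single transcripts, robust moderation, the compared groups alone, a replicate block and leaving out each library. Over the tested genes, same-numbered libraries deviated together at r = -0.05 to 0.20, so the numbers were not taken as pairs. Fcer1a itself was higher in the first library of every group.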

Additional observations from a re-analysis of the deposited data

How the results depend on the processing

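Under no alternative tried was a member called between genotypes, in the difference of the genotype changes, or between the populations of deficient mice. In control mice 1 of 4 members was called between populations. This became 3 with protein-coding genes rescaled, 2 with the filter in at least 4 libraries and 2 with robust moderation. It became 0 for the most abundant transcript, with the compared groups alone, without both first basophil libraries and for coding transcripts only. It ranged from 0 to 2 when 1 library was left out. Shared exon coverage, coding transcripts only and leaving out both first basophil libraries were chosen after seeing the data.

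The Nfil3 difference was -0.042 over shared exons (exact permutation p = 1), which leave out the last exon and so cannot show a loss there. It was -2.89 over the 6 libraries left without both first basophil libraries. The log2 ratio of Fcgr3 to Fcgr2b between populations turned to 1.41 for the most abundant transcript, 0.46 for coding transcripts and 0.10 without both first basophil libraries, and between genotypes to 0.093 for coding transcripts, with -0.70 to -0.37 when 1 library was left out. The log2 ratio of Fcer1g to Ms4a2 between populations was -1.45 for the most abundant transcript and 0.48 over shared exons. Between genotypes it was -0.080 over shared exons and -0.12 to 0.35 when 1 library was left out. The cause was not tested.

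With the replicate block, which pairs libraries by number, the Nfil3 difference of -3.05 had an exact permutation p of 0.125, the smallest that 4 pairs allow, and Fcer1a over both populations had an adjusted p of 0.121. It changed no call of a member, and all-gene calls over both populations went from 11 to 7.

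Of 688 alternative values of member changes, 45 turned sign, none of them where either value was called. In pre-Baso the genotype change of Fcer1g became 0.013 in FPKM, 0.011 with protein-coding genes rescaled and 0.027 over shared exons. Over shared exons that of Ms4a2 became 0.052 and that of Fcgr2b -0.13. The Fcgr2b change became -0.83 for the most abundant transcript and -0.34 for coding transcripts. In basophils Fcgr2b became 0.11 and Fcgr3 0.50 for the most abundant transcript, Fcgr3 0.38 for coding transcripts, and Fcgr2b 0.32 without both first basophil libraries. There Fcgr4 became -0.21 with a pseudocount of 0.1, -0.079 with coding genes rescaled, -0.14 over shared exons and -0.29 without both first basophil libraries. Over both populations Fcgr2b became -0.36 (most abundant transcript), -0.37 (coding) and -0.16 (shared exons), Ms4a2 0.038 and Fcgr4 -0.018 (shared exons), and Fcgr4 -0.056 without both first basophil libraries. In deficient mice the change between populations became -0.26 for Ms4a2 over shared exons. The difference of genotype changes became 0.93 for Fcgr2b and 2.78 for Fcgr3 (most abundant transcript), 1.30 for Fcgr3 (coding), -0.027 for Ms4a2 (shared exons) and 0.035 for Fcgr4 (pseudocount 5).

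Leaving out 1 library gave these ranges where a sign turned. In pre-Baso the genotype change was -1.16 to 0.10 for Ms4a2, -0.23 to 0.16 for Fcer1g and -0.13 to 0.0096 for Fcgr3. In basophils it was -0.090 to 0.20 for Ms4a2, -0.57 to 0.32 for Fcgr2b and -1.49 to 1.56 for Fcgr4. Over both populations it was -0.55 to 0.078 for Ms4a2 and -0.66 to 0.87 for Fcgr4. In deficient mice the change between populations was -0.30 to 0.95 for Ms4a2 and -0.031 to 0.45 for Fcgr2b. The difference of genotype changes was -0.045 to 1.21 for Ms4a2, -0.32 to 0.072 for Fcer1g and -1.68 to 1.38 for Fcgr4. Each group held 2 libraries and the files hold no counts, which limits the precision of low members, and the spread behind a lone library was taken from the other groups.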
